A study of Rattus norvegicus with 6 samples.

Results

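The genes for the proteins of the cytosolic ribosome are described here in the renal cortex of rats given dipropylene glycol (DPG) and of control rats. They were chosen by name: every array probe whose transcript maps to a symbol that starts with Rpl or Rps followed by a number, a stalk protein code or a (as in Rpsa), without pseudogenes and without the Rps6 kinases. This gave 84 of the 15645 genes named on the array, read by 244 of its 61537 probes: 49 of the large subunit, 31 of the small subunit and 4 of the stalk. Of these, 83 genes had a usable signal, carried by 241 probes, and 239 of those were above background on all 6 arrays. Rpl27l2 had 1 probe, which was above background on 0 of the 6 arrays, so it has no value. Rps9, Rpl26, Rpl37, Rps27l, Rpl7l1 and Rpl26l1 matched no probe and are not analysed here. Of the 84 genes, 11 carry the name of a copy or relative of a standard ribosomal protein (Rpl22l1, Rpl27l2, Rpl30l3, Rpl36al1, Rpl37al2, Rpl37l1, Rpl39l1, Rpl3l, Rplp1l1, Rps12l4 and Rps4y2).

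The study gave 3 male Sprague-Dawley rats of the Crl:CD(SD) stock dipropylene glycol, a glycol solvent, at 1000 mg/kg/day for 4 weeks. Its control group was 3 male rats of the same stock given water for 4 weeks. All 6 rats were bought at an age of 5 weeks and kept on the same basal diet, and the sources used here do not give the route of dosing. Each rat's total RNA from renal cortex, the outer kidney with its glomeruli and most of its proximal tubule, went onto 1 one-colour Agilent array.

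The ribosome builds proteins from messenger RNA. Its small subunit reads the message, its large subunit joins the amino acids, and a stalk of acidic proteins on the large subunit recruits the translation factors. Cells make its proteins in matched amounts, and their messages are known for a run of pyrimidines (C or T) at the first transcribed base, the terminal oligopyrimidine or TOP motif, through which the growth kinase mTOR sets how well they are translated. Array signal measures the amount of message and not its translation.

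The start regions of 9 genes are shown because the TOP run is the sequence feature this family is known for. Each sequence has 10 bases before and 20 bases from the annotated first base, read 5′ to 3′ on the gene's strand from RefSeq, build GRCr8, with the TOP run in capitals. The first 6 hold a run and the last 3 hold none.
Rpl19: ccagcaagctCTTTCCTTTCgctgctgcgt
Rpl31: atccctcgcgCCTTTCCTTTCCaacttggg
Rpl10: gtgggagcgtCTCTTTTCCTCTggcgcggt
Rpl37a: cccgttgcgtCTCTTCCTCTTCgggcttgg
Rplp0: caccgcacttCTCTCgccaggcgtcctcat
Rps18: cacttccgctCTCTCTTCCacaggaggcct
Rpl11: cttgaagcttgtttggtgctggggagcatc
Rps6: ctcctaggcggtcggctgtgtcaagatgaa
Rpl3l: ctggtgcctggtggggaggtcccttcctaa
These stretches lie at chr10:83519054-83519083, plus strand (Rpl19), chr9:49143101-49143130, plus strand (Rpl31), chrX:157205840-157205869, plus strand (Rpl10) and chr9:81748081-81748110, plus strand (Rpl37a). The others lie at chr12:46718371-46718400, minus strand (Rplp0), chr20:4933735-4933764, plus strand (Rps18), chr5:153560783-153560812, minus strand (Rpl11), chr5:106420521-106420550, minus strand (Rps6) and chr10:14258436-14258465, plus strand (Rpl3l). The runs of Rpl31, Rpl10 and Rpl37a are 12 bases long, that of Rpl19 is 10 and that of Rplp0 is 5.

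RefSeq start windows of 300 bases, from 250 before to 50 after the start, were found for 67 of the 84 genes, as 68 windows. A C at the first base followed by at least 4 letters that are C or T stood in 23 of the 68 windows (33.8%), against 881 of 33469 windows of all genes (2.63%). The letters CTTTCC, which the Rpl19 and Rpl31 runs contain, lay within 20 bases of the start on the transcribed strand in 19 member windows (27.9%), against 1.73% of all windows. On the other strand they lay in 1 member window (1.47%), against 1.77% of all windows. CCGGAAG, the core letters bound by ETS factors such as GABP, was present on either strand of 19 member windows (27.9%), against 8.75% of all windows. Both CCGGAAG and a TOP run were present in 7 windows, in 2 of which the run overlaps the letters CTTCCGG, and 7 of the windows with a TOP run also held CTTTCC. The annotated first base can be off by a few bases, so a window with no run at that base may still hold one nearby.

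On the arrays, the ribosomal protein genes differed little between DPG and control rats: most lay slightly higher in DPG rats, and 0 of 83 passed the adjusted test. Signals are given as the log2 of the processed spot signal over the 75th percentile of the same array, so 0 is that percentile, and a level says nothing about the amount of RNA of one gene against another. Across 29647 features (named genes and unnamed probes), limma with Benjamini-Hochberg adjustment called 0 at an adjusted p of 0.05 (0%), and 0 of 83 ribosomal protein genes, whose smallest adjusted p was 0.354. At an unadjusted p of 0.05 it passed 2 of the 83 genes, Rpl19 and Rpl11, both higher in DPG rats (2.41%), where it passed 12.4% of all features, 6.68% higher and 5.7% lower. With an intensity trend and robust variance in limma, 13 members passed that p (15.7%), 12 of them higher and 1 lower, against 12.9% of all features, 7.05% higher and 5.8% lower. The median log2 fold change, DPG over control, was 0.046 over the 83 genes and 0.0035 over all features. It was 0.051 for the large subunit, 0.035 for the small subunit, 0.021 for the stalk and 0.053 for the copies and relatives. The median was 0.012 over all 83 genes and -0.018 for the small subunit under another background correction (normexp). Without the rat DPG 1 the median over the 83 genes was 0.027. The order of the subunits was not stable: without DPG 2 the median was 0.069 for the small subunit and 0.055 for the large, and without control 1 it was 0.057 and 0.048. The DPG arrays lay on 1 slide and scan run and the control arrays on another, so treatment and slide cannot be told apart in any value given here. In whole cortex, fewer cells of a type and less RNA per cell cannot be told apart either.

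The log2 fold change was above 0 for 59 of the 83 genes (71.1%), against 50.8% of all features. With normexp it was above 0 for 43 (51.8%), against 50.5% of all features. All 3 DPG arrays lay above all 3 control arrays for 23 genes, where this held for 10.7% of all features, and below them for Rps18 alone (8.96% of all features). These counts were 17 higher and 9 lower with normexp, where 12% and 10.8% of all features lay apart. With 1 array fewer, groups fall apart more often by construction. Without DPG 2, 39 genes were apart and higher (47%), against 16.4% of all features. With 1 rat left out in turn the count lower lay between 1 and 7, with 7 (8.43%) reached without DPG 1, where 12.7% of all features were apart and lower. The shift differed between the DPG rats. Set against the control mean of each gene, the median deviation was 0.091 on DPG 1, 0.015 on DPG 2 and 0.054 on DPG 3, against 0.0034, 0.0019 and -0.0026 on controls 1 to 3. DPG 1 had 71 of 83 genes above the control mean, DPG 2 had 45 and DPG 3 had 62, against 46, 46 and 39 on the controls. Since the control mean is made from the control arrays, their own deviations lie near 0 by construction.

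**Figure D1:**
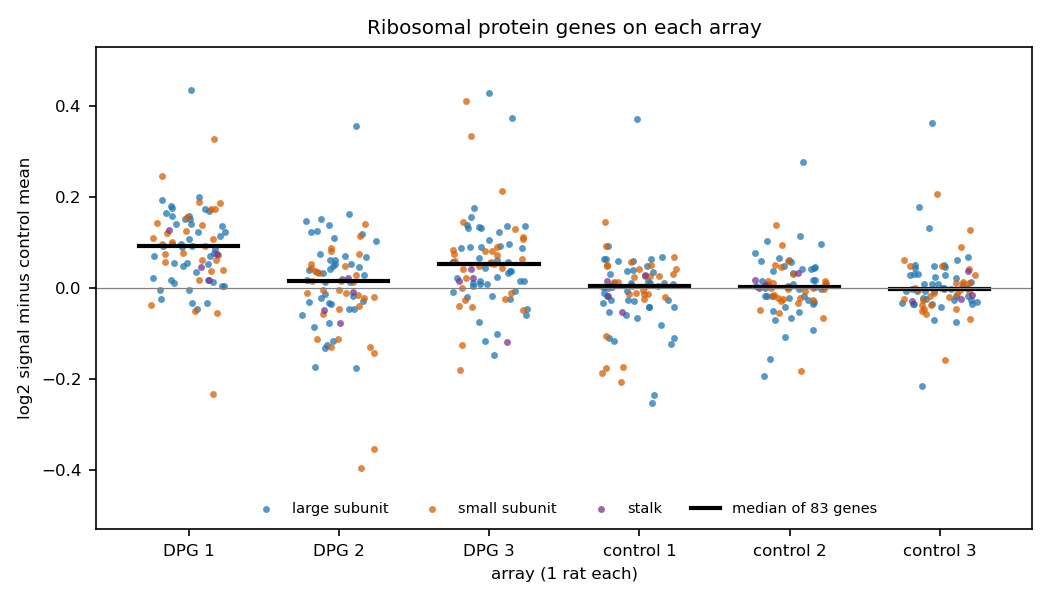
Log2 signal of each ribosomal protein gene minus its mean in the 3 control rats (vertical axis), for the 3 DPG arrays and the 3 control arrays (horizontal axis). Points are genes coloured by subunit, black lines are medians over 83 genes, and 15 points of 5 genes beyond 0.5 are not drawn. The DPG medians are 0.091, 0.015 and 0.054.

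For most genes the interval round the difference of the brightest probe was narrow. These intervals reflect the spread between arrays of a group. They do not cover a difference between the 2 slides, which coincide with the groups, or disagreement between probes of a gene. Of the 83 genes, 58 had a log2 fold change within 0.1 of 0 and 76 within 0.2. For 77 genes the 95% interval of the fold change lay within 1.5-fold either way, and for 71 within 1.25-fold. The interval reached past 1.5-fold for Rpl19, Rps24, Rpl3l, Rpl30l3, Rpl39l1 and Rps12l4 (Rps24, at 0.27 ± 0.14 with overlapping groups, is named after its values were seen). The median SD between arrays of a group was 0.054 in DPG rats and 0.046 in control rats for the ribosomal protein genes. It was 0.123 and 0.122 for all features, and 0.062 and 0.066 for the 5% of features with the strongest signal. Those strongest features had a median log2 fold change of 0.013, and 9.58% of them passed an unadjusted p of 0.05. Deviations from the group mean over the 6 arrays were only loosely shared between members, with a median Pearson r of 0.29 over 3403 pairs, 69.0% of them above 0. These pairs share arrays and scaling, and the r is a description.

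**Figure D2:**
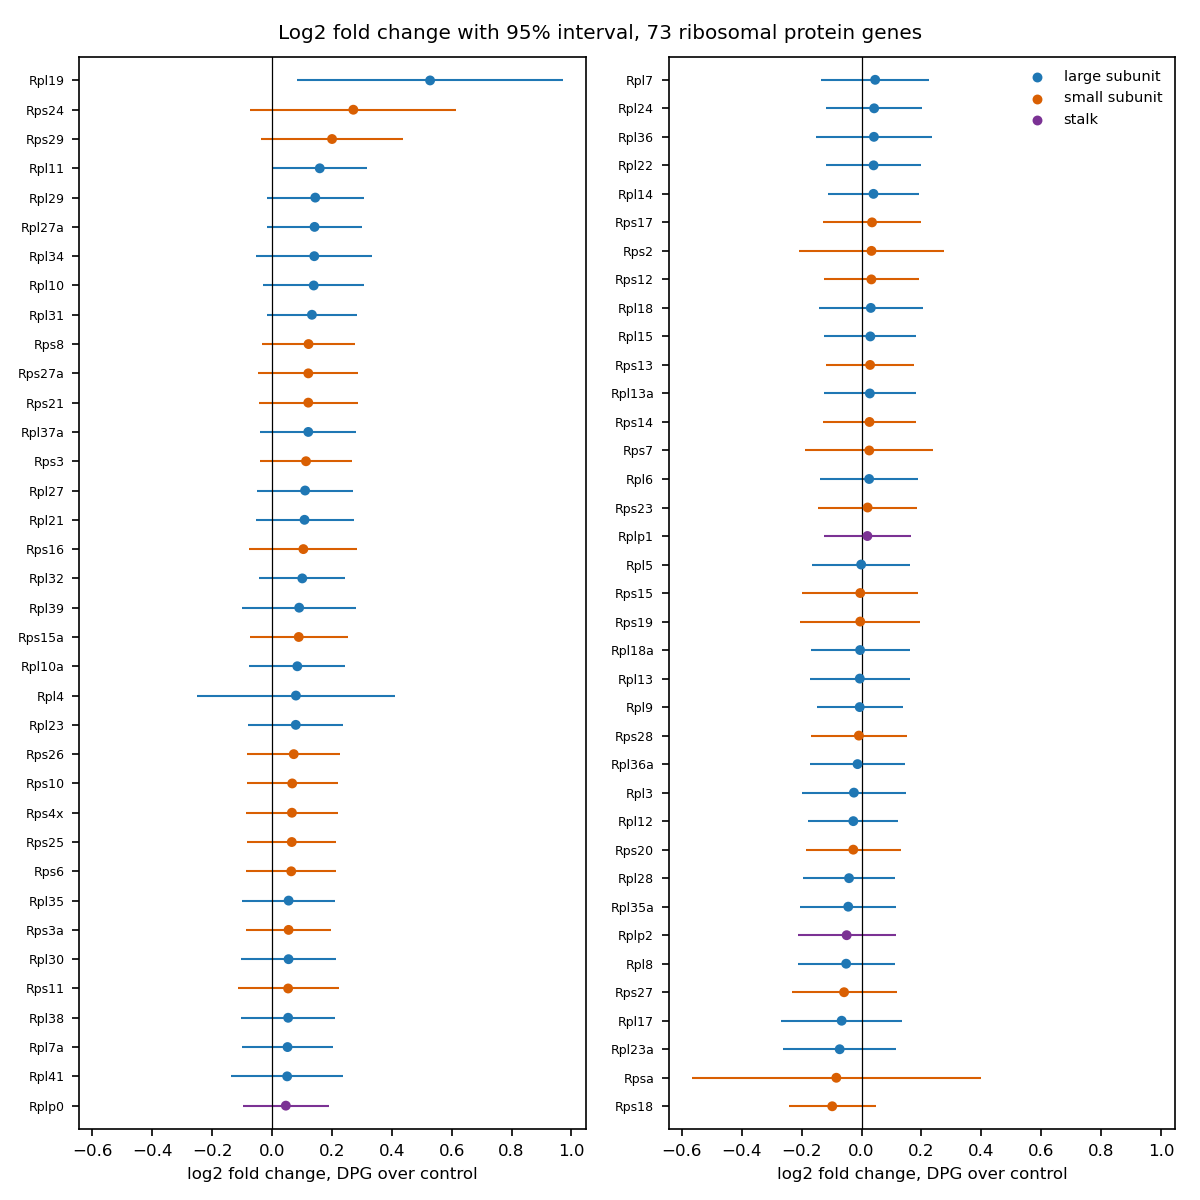
Log2 fold change, DPG over control, with its 95% interval from limma (horizontal axis), for the 73 measured genes with a standard ribosomal protein name, sorted from highest (top left) to lowest (bottom right) and coloured by subunit. The intervals of Rpl19 and Rpl11 lie above 0, and all others include 0.

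Among the proteins of the large subunit, Rpl19, which takes part in the bridges between the subunits, had the highest log2 fold change among genes with a standard name. Its brightest probe read 7.51, 7.79 and 7.50 in DPG rats, against 7.44, 6.91 and 6.85 in control rats. Control 1 lay just below the lowest DPG rats and the other two controls lay well below, so the groups did not overlap. The difference between the group means was 0.53 ± 0.18 (log2 fold change with its SE from limma, 3 rats in each group, as in all values of this form), with a 95% interval of 0.085 to 0.97 and a limma adjusted p of 0.354. The other probes of Rpl19 did not share this size: they gave -0.00053, 0.011 and 0.15, and the mean over its 4 probes gave 0.17. The probe at -0.00053 read 6.55, 6.45 and 6.50 in DPG rats, against 6.44, 6.54 and 6.52 in control rats, and its groups overlapped.

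Rpl11 and Rpl5 join the large subunit together with its small ribosomal RNA, and free copies of both are known to bind Mdm2 and stabilise p53. The brightest Rpl11 probe read 6.83, 6.79 and 6.78 in DPG rats, against 6.63, 6.59 and 6.70 in control rats, and its groups did not overlap. This gave a difference of 0.16 ± 0.064 (limma adjusted p = 0.401). The other Rpl11 probe lay the opposite way, with 6.01, 5.99 and 6.02 in DPG rats and 6.14, 6.06 and 6.14 in control rats, a log2 fold change of -0.11, again with no overlap. The mean of both probes was 0.025 higher in DPG rats. Rpl5 read 5.49, 5.38 and 5.50 in DPG rats, against 5.46, 5.49 and 5.42 in control rats, a log2 fold change of -0.0012 ± 0.066, and its groups overlapped.

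Several other large-subunit genes had small differences without overlap between the groups. Rpl10, which is added late in the making of the subunit, read 7.45, 7.41 and 7.42 in DPG rats, against 7.35, 7.20 and 7.32 in control rats, and had a log2 fold change of 0.14 ± 0.069. Rpl31, which lies near the exit of the peptide tunnel, read 6.88, 6.82 and 6.83 in DPG rats, against 6.75, 6.71 and 6.68 in control rats, a difference of 0.13 ± 0.062. In both genes the DPG arrays sat close together and the lowest stood above the highest control array. Their other probes gave smaller values: the probes of Rpl10 ran from 0.050 to 0.14 and those of Rpl31 from -0.00017 to 0.13. Rpl27a read 6.59, 6.47 and 6.58 in DPG rats, against 6.41, 6.40 and 6.40 in control rats, with a log2 fold change of 0.14 ± 0.064. Its 3 control arrays were nearly equal, and all DPG arrays lay above them. The other Rpl27a probe gave 0.049. Rpl29, a protein of the subunit surface, read 7.17, 7.13 and 7.17 in DPG rats, against 7.01, 6.94 and 7.08 in control rats, and its log2 fold change of 0.14 ± 0.066 was joined by values of 0.052 to 0.18 from its 4 other probes. One of those others, at 0.18, was the third member probe past an unadjusted p of 0.05 (limma adjusted p = 0.356 over single probes). The limma adjusted p values of these 4 genes lay between 0.442 and 0.475.

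The remaining large-subunit genes looked at singly lay closer to 0. Rpl3, a protein close to the site of peptide bond formation, read 6.22, 6.04 and 6.16 in DPG rats, against 6.17, 6.16 and 6.16 in control rats, a log2 fold change of -0.025 ± 0.071. Rpl13a, also known from a complex that holds back the translation of inflammatory messages, had 0.028 ± 0.063, and Rpl32 had 0.10 ± 0.058 with its groups apart. The probes of Rpl32 ran from -0.043 to 0.10. The groups of Rpl3 and Rpl13a overlapped. Rpl17 and Rpl23a, both near the exit of the peptide tunnel, had -0.066 ± 0.083 and -0.073 ± 0.077, with overlapping groups. Rpl4, which lines the tunnel, read 6.36, 6.29 and 6.06 in DPG rats, against 5.92, 6.26 and 6.29 in control rats, a difference of 0.080 ± 0.13 within wide overlap. Its other probe gave -0.18, with 4.05, 3.94 and 4.15 in DPG rats against 4.25, 4.25 and 4.19 in control rats, and there all DPG arrays lay below the controls. Rpl35a, mutated in some people with Diamond-Blackfan anaemia, had -0.044 ± 0.065, and its 5 probes ran between -0.20 and 0.11.

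Among small-subunit genes, Rps29, a small zinc-binding protein, had the lowest unadjusted p. It read 8.29, 8.18 and 8.25 in DPG rats, against 8.13, 7.86 and 8.13 in control rats, so control 2 alone lay far below and the groups did not overlap. The difference was 0.20 ± 0.097 (limma adjusted p = 0.466), and its 2 other probes gave 0.070 and 0.074. Rps18, a protein of the subunit's head, read 7.29, 7.24 and 7.22 in DPG rats, against 7.34, 7.35 and 7.36 in control rats. All 3 DPG arrays lay below all 3 controls, with a log2 fold change of -0.098 ± 0.060 (limma adjusted p = 0.552). It had 1 probe, so no second reading exists. Rps27, a zinc-finger protein, had -0.058 ± 0.072, and its groups overlapped.

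Rps6, the ribosomal protein that S6 kinases phosphorylate downstream of mTOR, read 7.78, 7.70 and 7.71 in DPG rats, against 7.65, 7.70 and 7.65 in control rats. The lowest DPG array lay barely above the highest control array, and the log2 fold change was 0.064 ± 0.061. The probes of Rps6 ran from -0.063 to 0.086. Rps3, which lines the entry of the messenger RNA, read 6.84, 6.74 and 6.82 in DPG rats, against 6.70, 6.70 and 6.66 in control rats, a difference of 0.11 ± 0.063 without overlap, and its 3 probes all lay above 0. Rps27a, made as a fusion with ubiquitin, read 6.44, 6.35 and 6.38 in DPG rats, against 6.27, 6.20 and 6.33 in control rats, again without overlap, a difference of 0.12 ± 0.068. The probes of Rps27a ran from 0.0031 to 0.12, and with normexp the Rps27a value was -0.0014. Rps19, the gene most often mutated in Diamond-Blackfan anaemia, had -0.0043 ± 0.082, and the sign turned under 7 alternative settings. Rpsa, also known as a laminin receptor, read 5.19, 5.07 and 5.76 in DPG rats, against 5.57, 5.44 and 5.26 in control rats. DPG 3 stood far above the other DPG rats and above every control, and the log2 fold change was -0.084 ± 0.20, or 0.051 without DPG 2. Rps3a had the lowest SD within groups of all members, with 7.08, 7.03 and 7.07 in DPG rats against 7.01, 7.0 and 7.01 in control rats. Every DPG array lay above the controls, and the log2 fold change of 0.055 ± 0.058 had an unadjusted p of 0.376 from limma. That SE is not the spread of Rps3a alone, as limma moves each gene's variance towards that of all features. The SDs of Rps3a were 0.024 in DPG rats and 0.0065 in control rats, against medians of 0.123 and 0.122 over all features.

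The stalk genes had the smallest median difference of the 3 roles. Rplp0, the base of the stalk, read 8.56, 8.50 and 8.52 in DPG rats, against 8.50, 8.49 and 8.46 in control rats, a log2 fold change of 0.046 ± 0.059 that was -0.0020 with normexp. Rplp1 read 8.69, 8.63 and 8.66 in DPG rats, against 8.62, 8.68 and 8.63 in control rats, a difference of 0.020 ± 0.060. Rplp2, which pairs with Rplp1, read 7.60, 7.54 and 7.47 in DPG rats, against 7.61, 7.58 and 7.56 in control rats, a difference of -0.050 ± 0.067. The groups of Rplp1 and Rplp2 overlapped, and those of Rplp0 were barely apart. The fourth gene, Rplp1l1, had 0.023 ± 0.078. Every probe of Rplp0, Rplp1 and Rplp2 had the sign of their brightest probe.

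The copies and relatives of standard genes included the 2 members with the highest SD within groups, Rpl39l1 and Rpl30l3. Rpl39l1, whose mouse counterpart is used in the making of sperm, read -4.30, -4.15 and -4.72 in DPG rats, against -7.56, -8.23 and -2.72 in control rats. It was above background on all 3 DPG arrays but on only 1 control array, control 3, which was also the highest of the 6. Its log2 fold change of 1.78 ± 1.43 had a 95% interval of -1.72 to 5.29. Rpl30l3 split both groups, with -0.78, -1.0 and 0.90 in DPG rats and -0.61, 1.30 and 0.89 in control rats: DPG 3 matched the higher controls and control 1 matched the lower DPG rats. Its log2 fold change was -0.82 ± 0.69. Rpl3l, the relative of Rpl3 known from heart and skeletal muscle, read -3.72, -3.95 and -4.17 in DPG rats, against -4.56, -4.03 and -4.33 in control rats, overlapping, a difference of 0.36 ± 0.17. Its other probe was above background on 0 arrays.

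Rpl22l1, which can take the place of Rpl22 and is held down by Rpl22 in mice, read 5.12, 5.22 and 5.09 in DPG rats, against 5.03, 5.07 and 5.09 in control rats. These groups were barely apart, and the log2 fold change was 0.083 ± 0.067. The probes of Rpl22l1 ran from -0.041 to 0.21. Rpl22 itself had 0.040 ± 0.065, with overlapping groups. Rps4y2, Rpl37al2 and Rps12l4 had -0.12 ± 0.10, -0.10 ± 0.11 and -0.35 ± 0.38, all with overlap. Leaving the 11 copies and relatives out, the median over the remaining 73 genes was again 0.046. Ribosomal protein genes have many near-identical processed copies in mammalian genomes, and array probes may bind more than 1 of them.

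Single probes bear on how far a value for 1 gene can be read. Over the 241 probes, 166 had a log2 fold change above 0 (68.9%, against 50.3% of all 40383 probes), with a median of 0.041. Groups did not overlap for 48 probes higher in DPG rats (10.5% of all probes) and 5 lower (9.21% of all probes). At an unadjusted p of 0.05, 3 probes passed, of Rpl19, Rpl29 and Rpl11, all higher (6.56% of all probes), and 0 passed lower (5.84% of all probes). Of the 72 genes with several probes, 36 had probes on either side of 0. The probes of Rpl19 and Rpl35a spanned more than 0.3, which held for these 2 alone.

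**Figure D3:**
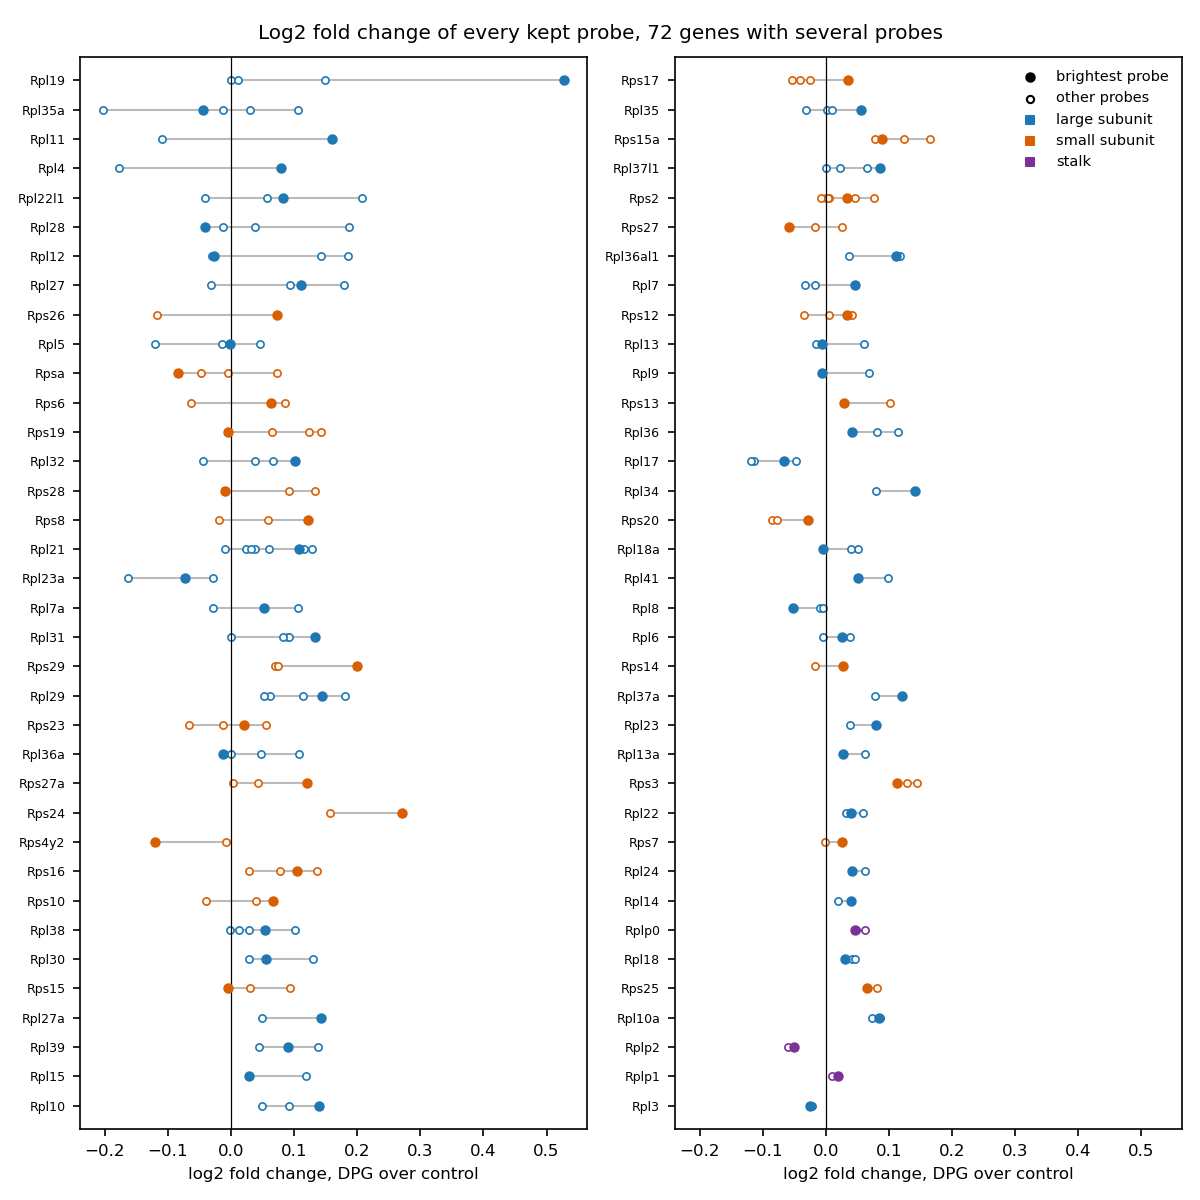
Log2 fold change, DPG over control (horizontal axis), of every kept probe of the 72 ribosomal protein genes with several probes, sorted by the span between probes, widest at the top left. Filled points are the brightest probe, which stands for the gene, and open points are the others. The span is widest for Rpl19, between -0.00053 and 0.53.

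The start sequences were set beside the fold changes as a description. The 23 genes with a TOP run at the annotated first base had a median log2 fold change of 0.040, and 16 lay above 0. The 43 measured genes whose window held none had a median of 0.051, and 32 lay above 0. The members with a run included Rpl19 at 0.53 and Rps18 at -0.098, at opposite ends of the standard genes. The 19 genes with CCGGAAG had a median of 0.066, with 17 above 0, against 0.033 and 31 of 47 for the genes without it. These splits share genes and arrays, and no test was made of them.

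Genes that work with the ribosomal proteins also lay near 0. Of the components of the cytosolic ribosome outside the naming rule, the scaffold Rack1 had a log2 fold change of 0.032, and Fau, made as a fusion with a ubiquitin-like protein, had 0.067, both with overlapping groups. All 67 mitochondrial ribosomal proteins listed were measured, with a median of 0.020 and 39 above 0 (58.2%, against 50.8% of all features). Their groups were apart and higher for 8 and apart and lower for 4, against 10.7% and 8.96% of all features. Mrpl15, at -0.26 ± 0.092, was the 1 of the 67 past an unadjusted p of 0.05 (1.49%, against 12.4% of all features). Translation factors known for TOP messages were measured for 16 of 18, with a median of 0.038 and a mean of 0.010. Of these 9 lay above 0 (56.25%, against 50.8% of all features) and 7 below, and 0 passed that p. Groups were apart and higher for 0 of them and apart and lower for 3, against 10.7% and 8.96% of all features. The 3 were Eif3e, a subunit of an initiation factor, at -0.18, the poly(A)-binding protein Pabpc1 at -0.13, and Npm1, a nucleolar protein, at -0.053.

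Ribosome biogenesis genes were measured for 38 of 44, with a median of 0.042 and 22 above 0 (57.9%, against 50.8% of all features). Groups were apart and higher for 9 of the 38 and apart and lower for 3, against 10.7% and 8.96% of all features. The snoRNA-binding protein Nop10 read 4.92, 5.03 and 5.03 in DPG rats, against 4.80, 4.79 and 4.81 in control rats, a log2 fold change of 0.19 ± 0.065 (limma adjusted p = 0.350). The assembly factor Rrs1 read -0.35, -0.37 and -0.41 in DPG rats, against -0.15, -0.059 and -0.16 in control rats, a difference of -0.25 ± 0.065 (limma adjusted p = 0.288). These 2 genes were 1 higher and 1 lower at an unadjusted p of 0.05, each with groups that did not overlap. They make 5.26% of the list, where 12.4% of all features passed that p. Genes that control ribosome synthesis were measured for 16 of 19, with a median of 0.033. Of these 11 lay above 0 (68.75%, against 50.8% of all features) and 0 passed that p, against 12.4% of all features. In this list groups were apart and higher for 1 gene and apart and lower for 0, against 10.7% and 8.96% of all features. Ddit4, an inhibitor of mTOR signalling, had the lowest p of that list, with 3.31, 3.05 and 2.57 in DPG rats against 2.08, 2.97 and 1.63 in control rats. Its groups overlapped through control 2, and the log2 fold change was 0.75 ± 0.37. Myc, a driver of ribosome synthesis, had 0.28 ± 0.25 and overlapped.

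**Figure D4:**
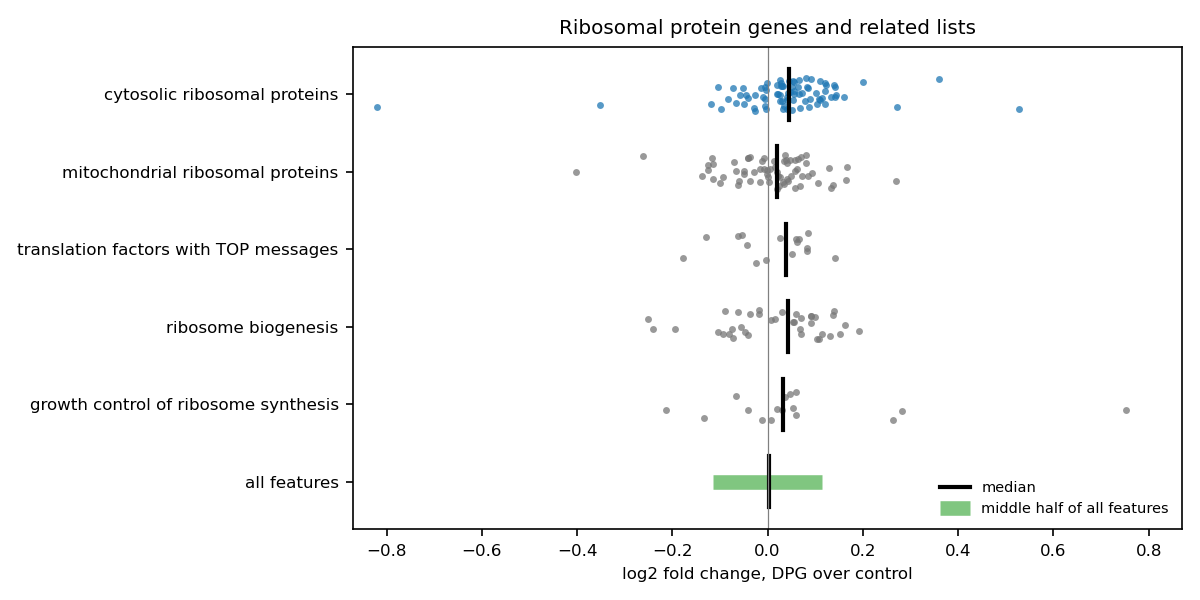
Log2 fold change, DPG over control (horizontal axis), of the measured genes of 5 lists, with black lines at the medians. The green bar spans the middle of all 29647 features, from the lower to the upper quartile, between -0.11 and 0.11, and 1 ribosomal protein point (Rpl39l1 at 1.78) beyond 0.85 is not drawn. The ribosomal protein median of 0.046 lies inside the green bar.

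The arrays themselves were alike, with Pearson correlations across features between 0.989 and 0.994, and between 39556 (control 3) and 43184 probes well above background. Control 3 had 34 spots with outlier flags and DPG 1 had 4. Marker lists are read against the 6.68% of all features higher and 5.7% lower at an unadjusted p of 0.05. Markers of the cortex were present: of 12 proximal tubule markers all were measured, with 3 lower and 1 higher at that p, and summed signals, in multiples of the array's 75th percentile, of 2606 to 2926 in DPG rats against 2615 to 2929 in control rats. Of 12 leukocyte markers 10 were measured, with Cd3e higher and Cd79b lower at that p (log2 fold changes of 0.89 and -1.07) and summed signals of 108 to 146 in DPG rats against 109 to 133 in control rats. The thick ascending limb and distal list was measured for 7 of 7, with 3 higher and 1 lower at that p and sums of 774 to 862 in DPG rats against 684 to 728 in control rats. All 5 podocyte markers had log2 fold changes below 0, 2 of them past that p, with sums of 24.2 to 30.7 in DPG rats against 25.6 to 33.4 in control rats. Of 5 endothelial markers, all measured, Pecam1 and Ehd3 were higher at that p (0.18 and 0.37). The median of the 5 was 0.0044, with 3 above 0 and 2 below, down to -0.14. Endothelial sums were 26.4 to 29.1 in DPG rats against 26.1 to 30.8 in control rats. Of 6 adipocyte markers 4 were measured, with 2 higher and 1 lower, and sums of 2.98 to 4.33 in DPG rats against 2.88 to 3.39 in control rats. Of the measured inner medulla (5 of 5) and red blood cell markers (2 of 3), 0 passed that p. For the leukocyte list, DPG 2 was lowest of the 6 arrays (108), and of the DPG rats it also had the smallest shift of the ribosomal protein genes. Control 1 lay close to it (109), and control 2 lay close to DPG 1 (both 133). DPG 3 had the highest leukocyte sum (146) but a smaller ribosomal protein shift than DPG 1. Among the DPG rats, DPG 2 also had the highest proximal tubule, thick ascending limb and distal, podocyte, inner medulla and endothelial sums, and the lowest adipocyte sum. The 6 measured of 8 proliferation markers all had log2 fold changes above 0, with 3 past that p and sums of 9.49 to 11.2 in DPG rats against 8.33 to 8.83 in control rats. Whether any of these lists plays a part in the ribosomal protein values was not tested. For comparison, the summed signal of the ribosomal protein genes was 10676, 10182 and 10371 in DPG rats, against 9988, 9999 and 10010 in control rats, with no overlap. The brightest genes weigh most in such a sum. Over the 5% of features with the strongest signal the sums overlapped, at 164167 to 167277 in DPG rats and 161753 to 166753 in control rats. With normexp the median log2 fold change of the ribosomal protein genes was 0.012, with 51.8% above 0.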

How the data were processed

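Cy3-labelled RNA of 6 rats was hybridised to 1 one-colour Agilent array each, per the labels' protocols. Values start from the spot intensity the authors deposited, background-subtracted and detrended by Agilent's Feature Extraction software (10.7 in the submitters' processing notes and 10.7.1.1 per the file headers). The deposited table of the whole series holds the ratio of each processed signal to about the array's 75th percentile, as a constant ratio within each array shows (column medians 0.108 to 0.114); genes are not centred in it, and the sources used here do not give how the authors scaled it. A flag for signal well above background, deposited per spot, set the filter.

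Signals were scaled by subtracting, on the log2 scale, the 75th percentile of their array. A probe stayed if every array of either group had it well above background (40406 probes), less 23 with an outlier flag, and 0 spots were saturated. Probes were named by accession through RefSeq genes of assembly GRCr8 (28206 probes with 1 symbol, 0 with several, the others unnamed here), and the brightest kept probe stood for a gene, giving 29647 features. DPG was set against control by limma's moderated two-sided test (limma 3.58.1, R 4.3.3), with Benjamini-Hochberg adjustment over all features (4 residual and 1.95 prior degrees of freedom). On simulated data for this comparison over 29647 features, recovery was 26% for 1.5-fold changes and 66% for 2-fold changes, then 96% (4-fold) and 100% (8-fold), and 9 calls were false.

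Members and lists were chosen with earlier results of these data known, so no list was tested. Named members were the 8 of lowest p in each direction, a fixed set (the stalk genes, Rpsa, Rps6, Rps3, Rpl5, Rpl11, Rps19, Rps27a, Rpl22, Rpl22l1, Rpl3, Rpl3l and Rpl13a, with Rps27l, which matched no probe), the 4 genes whose probes differed most, and those of highest and lowest SD within groups (2 each), with up to 3 genes of lowest p per related list. Alternatives were normexp on median spot signal (offset 50), median or quantile scaling, other filters, other probe rules, a variance trend, array weights, a replicate block, the deposited ratios and each rat left out. The number of arrays limits the precision. A few items are not reported here.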

Additional observations from a re-analysis of the deposited data

How the results depend on the processing

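The adjusted count over ribosomal protein genes was 0 under every alternative run, and over all features it was 0 except for 1 with a rat left out (0 to 1, with 1 reached without DPG 2 or control 2). Ribosomal protein genes past an unadjusted p of 0.05 numbered 7 with normexp background correction (7 higher, 0 lower, 8.43% against 15.1% of all features), 13 with an intensity trend and robust variance (12 higher, 1 lower, 15.7% against 12.9%), and 1 with quantile normalization, with no filter on dim probes, with the mean of a gene's probes and with the replicate block, against 2 in the main setting (2.41% against 12.4%). Of all features, 12.2% passed with quantile normalization, 7.31% with no filter, 12.1% with the mean of probes and 10.1% with the replicate block. With a rat left out the count of members ran between 1 and 3, against 8.56% to 13.2% of all features. Genes apart and lower numbered 9 with normexp, 2 with quantile normalization and 1 to 7 with a rat left out. The shares of all features apart and lower were 10.8%, 9.06% and 12.7% to 16.8%. Genes apart and higher numbered 14 with quantile normalization (16.9%, against 10.5% of all features). With a rat left out they numbered 23 to 39, where 14.9% to 17.6% of all features lay apart and higher. Counting every probe on its own gave 166 above 0, 48 apart and higher, and 5 apart and lower. Of all probes, 50.3%, 10.5% and 9.21% did so. With normexp the median over all members was 0.012 and that of the small subunit was -0.018. Leaving out genes with several probes gave the large subunit a median of -0.46, the middle of the 2 that remain, Rpl30l3 and Rpl37al2. Leaving out genes with several kept probes, chosen after seeing the data, kept Rpl3l and Rpl39l1 too and gave 0.13.

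Of 577 alternative values of named members, 20 turned sign, and 24 of 34 named members kept 1 sign throughout. With normexp Rplp0 was -0.0020, Rplp1 -0.063, Rps19 0.059, Rps27a -0.0014 and Rpl13a -0.078. Median scaling gave Rpl5 0.014 and Rps19 0.011, quantile normalization gave Rplp1 -0.018, and array weights gave Rps19 0.017. The mean of probes gave Rps19 0.082 and Rpl4 -0.049. With a rat left out, values turned for Rpsa (-0.29 to 0.051), Rpl5 (-0.021 to 0.037), Rps19 (-0.069 to 0.050), Rpl3 (-0.066 to 0.024), Rpl4 (-0.038 to 0.17) and Rps12l4 (-0.65 to 0.035). The cause of these changes was not tested.

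The replicate numbers were checked for pairing: same-numbered rats had deviations correlated at -0.023, -0.087 and -0.069, so the numbers are not taken to pair them. In this balanced design the replicate block cannot change a fold change or a median. It gave 0 adjusted calls, and 1 member passed an unadjusted p of 0.05, where 10.1% of all features passed. No slide block was run, as slides and groups coincide.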
